A study of Mus musculus with 10 samples.

Results

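The Kcn genes of the mouse encode potassium channel pore subunits and the smaller subunits that attach to them, and their signals were measured here in the cochlea, the hearing organ of the inner ear, of 2 strains with and without exposure to noise. Members were all probe sets (groups of short probes for 1 transcript) whose gene symbol in the array's annotation starts with Kcn. There were 51 such probe sets for 42 genes, of 12488 probe sets and 8251 genes with a probe set of a single symbol. Kcnj10, an inward rectifier of the stria vascularis, is not among them and was not analysed here. Of the 51 probe sets, 23 probe sets of 20 genes had a mean signal above a floor of 42.9 and were tested, and 28 lay below it. In the tests below, 1 of the 23 passed the threshold in 1 of 6 comparisons: a probe set of Kcnab2, a beta subunit gene, was higher in noise-exposed B6.CAST than in noise-exposed 129X1/SvJ. In that comparison 126 of all 8695 probe sets tested passed (1.45%), and the Kcnab2 call was lost when any of 3 single arrays was left out and under other settings given below. A second Kcnab2 probe set did not show that difference.

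Female mice aged 10 weeks of the strains 129X1/SvJ and B6.CAST were used. The noise groups received an octave band of noise centred on 10 kHz at 105 dB SPL for 1 h, and 6 h later they were killed. The control groups were placed in the chamber without noise. Each array was hybridised with RNA of the microdissected membranous labyrinth pooled from 8 mice, with 3 arrays for each of the 129X1/SvJ groups and 2 for each of the B6.CAST groups. Per the labels these are biological replicates, so an array stands for a pool and the spread between single mice was not measured. Replicate 3 of both 129X1/SvJ groups is spelled 129XI/SvJ in the labels and was kept in that strain. Values are the authors' linear signal intensities, and the levels of different probe sets cannot be set against each other.

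In the cochlea, potassium carries the current through hair cells. The marginal cells of the stria vascularis secrete it into endolymph through a channel built of Kcnq1 and Kcne1, and inward rectifiers of the intermediate cells generate the endocochlear potential. Voltage-gated and calcium-activated channels set the membrane potential of hair cells and the firing of spiral ganglion neurons, and two-pore domain channels carry background currents.

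Markers of cochlear cells were read against the floor. All 5 hair cell markers on the array, out of 8 listed, lay above the floor, as did 9 of 10 markers of spiral ganglion neurons, 4 of the 7 stria vascularis markers on the array that are not Kcn genes, and 4 of 4 Schwann cell markers. Markers of other tissues passed the same floor: 7 of 7 on the array for neutrophils, 5 of 5 erythroid, 4 of 4 for bone and 6 of 8 for skeletal muscle. Passing it therefore does not single out cochlear cells. No marker was listed at 0. In 129X1/SvJ the first noise array correlated less with the remaining arrays (mean 0.910) than any other did (0.943 to 0.955). Gapdh control probe sets at both ends of the transcript, which reflect RNA quality, gave 3′ to 5′ ratios of 29.2 for control replicate 2 of 129X1/SvJ, 6.94 for noise replicate 1 of B6.CAST and 0.790 to 1.40 elsewhere. The summed signal of 7 neutrophil markers ran from 3182 to 33096 in 129X1/SvJ, with the highest value on the first noise array, and from 2157 to 18115 in B6.CAST. In bulk tissue, fewer cells of a type and less RNA per cell cannot be told apart.

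Annotated start sites are shown first for the gene that passed the test and for a gene with a motif match. Of the 42 genes, 33 had at least 1 promoter window in the RefSeq table for GRCm38.p6, a reference sequence of C57BL/6J; Kcnq1, Kcne1 and Kcna1 were not among them. Each window runs from 250 bases before to 50 bases after an annotated start. Kcnab2, on the minus strand of chromosome 4, had 3 windows, which are given 5′ to 3′ with each CG dinucleotide in capitals. They lie at chr4:152448806-152449105, chr4:152452896-152453195 and chr4:152477500-152477799 and hold 3, 5 and 25 CG dinucleotides, against a median of 7 over all windows in the table. Which of these starts feeds which probe set was not tested.

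Kcnab2 start nearest the gene's end: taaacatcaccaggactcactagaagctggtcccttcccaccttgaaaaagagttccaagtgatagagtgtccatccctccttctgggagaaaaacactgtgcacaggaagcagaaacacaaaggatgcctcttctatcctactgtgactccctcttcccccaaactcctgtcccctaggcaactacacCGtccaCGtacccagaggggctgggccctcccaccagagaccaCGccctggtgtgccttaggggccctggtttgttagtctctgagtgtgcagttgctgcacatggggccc

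Kcnab2 middle start: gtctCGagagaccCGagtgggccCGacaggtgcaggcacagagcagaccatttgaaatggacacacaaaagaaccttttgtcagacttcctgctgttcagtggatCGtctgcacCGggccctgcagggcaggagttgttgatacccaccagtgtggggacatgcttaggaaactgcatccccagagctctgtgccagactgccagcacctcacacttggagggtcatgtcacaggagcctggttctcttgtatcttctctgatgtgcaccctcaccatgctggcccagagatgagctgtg

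Kcnab2 most upstream start: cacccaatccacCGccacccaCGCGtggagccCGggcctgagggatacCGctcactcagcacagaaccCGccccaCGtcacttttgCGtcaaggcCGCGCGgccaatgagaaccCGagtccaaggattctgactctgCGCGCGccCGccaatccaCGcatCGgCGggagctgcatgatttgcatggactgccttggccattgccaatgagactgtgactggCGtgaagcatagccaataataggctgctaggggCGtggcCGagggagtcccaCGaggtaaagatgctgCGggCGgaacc

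Kcnk2, on the minus strand of chromosome 1, is shown because it was the only member with a match to the motif searched. Of 42 Kcn windows, 1 (2.38%) held TGANTCA, the binding motif of the AP-1 transcription factor, which spells the same letters on both strands, so a single search covers both. Over all 32851 windows, 7.81% held it. The match was in the window at chr1:189344143-189344442, begins 126 bases before the annotated start and is printed in capitals. The other Kcnk2 windows held no match and are not printed. A match is a description of these letters only.

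Kcnk2 window with the match: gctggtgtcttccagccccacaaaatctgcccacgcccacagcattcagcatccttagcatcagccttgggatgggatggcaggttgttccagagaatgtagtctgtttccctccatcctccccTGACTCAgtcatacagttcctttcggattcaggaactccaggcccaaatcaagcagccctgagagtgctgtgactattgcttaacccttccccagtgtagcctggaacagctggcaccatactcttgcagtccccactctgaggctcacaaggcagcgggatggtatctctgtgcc

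Levels came first, because the floor decides which genes can be compared. Voltage-gated pore subunits had 6 of 16 genes above the floor, auxiliary subunits 4 of 5, inward rectifiers 3 of 11, two-pore domain channels 4 of 5, and calcium- or sodium-activated channels 3 of 5. The members just inside were Kcna2, with a mean signal of 50.7 and 6 of 10 arrays above the floor after normalization, and Kcns2, with 51.1 and 7 of 10 arrays. Just outside were Kcnc1, with a mean signal of 35.5 and 4 of 10 arrays above it, and the probe set 103973_at of Kcnj1, with 35.0. Below the floor, 22 genes had no tested probe set. They were Kcna3, Kcna4, Kcna5, Kcna6, Kcna7, Kcnc1, Kcnd1, Kcnd2, Kcnd3 and Kcnh1 among voltage-gated pores, and Kcne1l among auxiliary subunits. The others were Kcnj1, Kcnj2, Kcnj3, Kcnj5, Kcnj6, Kcnj11, Kcnj12 and Kcnj15 among inward rectifiers, Kcnk3, and Kcnmb1 and Kcnu1. Their signals are not separated from background here, and a dim probe set does not show that the gene is silent.

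**Figure D1:**
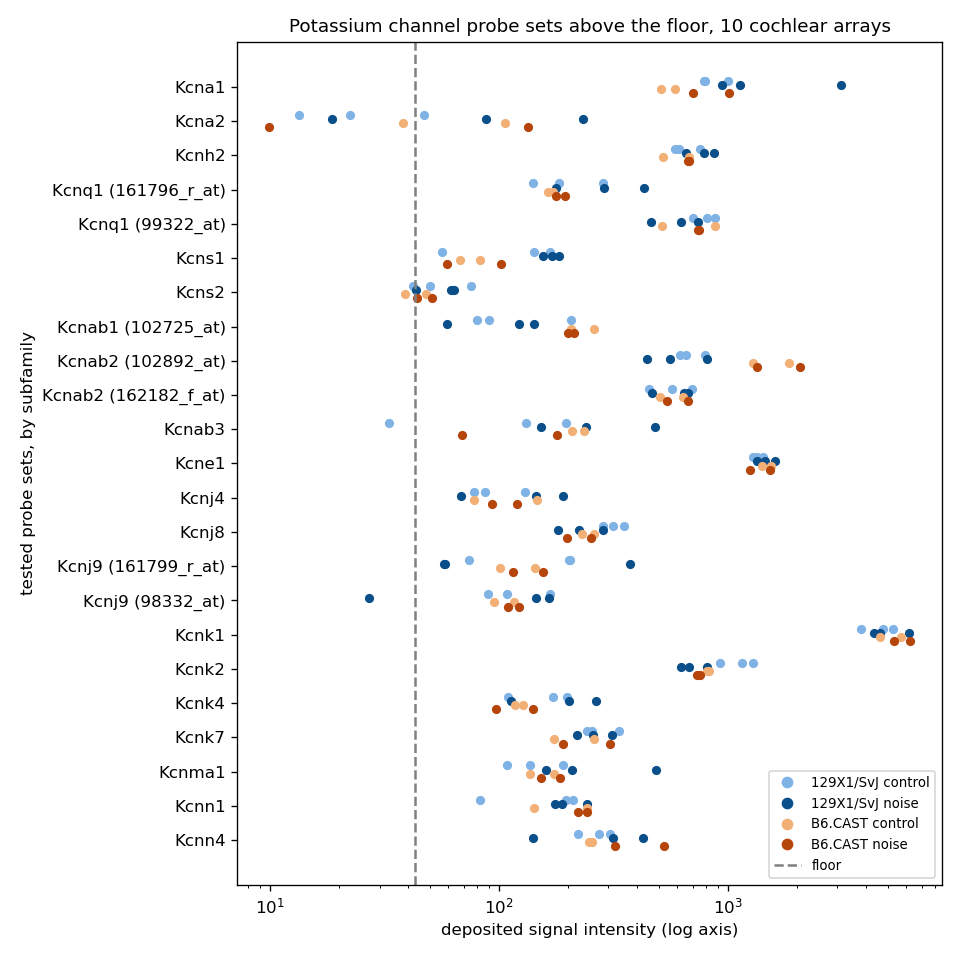
Deposited signal intensity (log axis) of the 23 tested potassium channel probe sets on each of 10 arrays, coloured by strain and exposure, with the floor of 42.9 as a dashed line. Kcne1 varies little between arrays, Kcna2 crosses the floor, and for Kcnab2 (102892_at) all 4 B6.CAST arrays lie above all 6 arrays of 129X1/SvJ.

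Among the voltage-gated pore subunits, Kcnq1, the pore of the marginal cell channel, has 2 tested probe sets. The probe set 99322_at read 806, 879 and 699 on the 129X1/SvJ control arrays and 623, 460 and 739 on the noise arrays. In B6.CAST it read 512 and 874 in controls and 743 and 741 after noise. The 129X1/SvJ groups overlap, since the highest noise array is above the lowest control array, and the B6.CAST controls lie on either side of the noise arrays. The log2 change with noise was -0.38 ± 0.22 (SE) in 129X1/SvJ, with a 95% interval of -0.86 to 0.11, and 0.15 ± 0.27 in B6.CAST, with an interval of -0.44 to 0.75. The difference of these changes was 0.53 ± 0.35 (limma, unadjusted p = 0.158, adjusted p = 0.997). The other probe set, 161796_r_at, read 140, 183 and 283 in 129X1/SvJ controls and 428, 288 and 177 after noise, and in B6.CAST 171 and 163 in controls and 177 and 194 after noise. Control and noise arrays overlap in 129X1/SvJ and not in B6.CAST. Its change was 0.44 ± 0.31 in 129X1/SvJ, of the opposite sign to that of 99322_at, and 0.15 ± 0.38 in B6.CAST, and no change of either probe set passed the test. In 129X1/SvJ, 161796_r_at changed by 0.17 without the first noise array and 99322_at by -0.20 without the second. The suffix _r_at marks a probe set with fewer usable probes and _f_at one that may match related sequences, so disagreement between probe sets of 1 gene is reported without choosing between them.

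Kcna1, a low-threshold channel subunit of neurons, read 994, 785 and 794 in 129X1/SvJ controls and 3103, 1125 and 943 after noise. The B6.CAST arrays read 588 and 511 in controls and 1010 and 704 after noise. The first noise array of 129X1/SvJ is far above the rest, and the groups overlap in that strain but not in B6.CAST. The change was 0.82 ± 0.36 in 129X1/SvJ (limma, unadjusted p = 0.044, adjusted p = 0.428) and 0.58 ± 0.45 in B6.CAST. Their mean was 0.70 ± 0.29 (limma, adjusted p = 0.594). Without the first noise array the change in 129X1/SvJ was 0.29. That array also had the highest mean log2 deviation of the 10 over 9 spiral ganglion markers, at 0.34. The second control array of that strain had the lowest, at -0.33. On the first noise array Nefm, Nefh, Prph, Gap43 and Thy1 read highest of the 10 as deposited and Stmn2 lowest. Nefl, Snap25 and Tubb3 lay between. The summed signal of the 10 listed markers was 25499 there, below 25784 on the first control array. Mean deviations of neutrophil (2.01), bone (0.77) and erythroid markers were also highest on the first noise array. The part of these cell types in the Kcna1 values was not tested. Between strains, Kcna1 differed by -0.59 ± 0.41 in controls and -0.84 ± 0.41 after noise (B6.CAST minus 129X1/SvJ), and neither passed (limma, adjusted p = 0.520 after noise).

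Kcna2, a partner of Kcna1 in the same channels, was close to the floor and scattered. It read 13.3, 22.3 and 46.8 in 129X1/SvJ controls, 233, 87.7 and 18.6 after noise, 106 and 37.8 in B6.CAST controls and 9.90 and 134 after noise. As deposited, each group has arrays on both sides of 42.9; after normalization the lower B6.CAST control is just above the floor. Its residual SD of 1.08 on the log2 scale was larger than that of 99.2% of the probe sets tested. The change was 1.13 ± 0.69 in 129X1/SvJ and -0.42 ± 0.84 in B6.CAST. Their difference was -1.55 ± 1.09 (limma, unadjusted p = 0.182), and it was -0.35 on omitting B6.CAST noise replicate 1 and -2.75 on omitting noise replicate 2.

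The other voltage-gated pores were Kcnh2, a channel with slow deactivation that also sets the heart's rhythm, and Kcns1 and Kcns2, subunits that carry no current alone and modify other channels. Kcnh2 read from 520 to 870 over the 10 arrays, with noise changes of 0.25 ± 0.19 and 0.19 in 129X1/SvJ and B6.CAST. Kcns1 read 155, 171 and 183 on the 129X1/SvJ noise arrays and 59.2 and 102 on those of B6.CAST, without overlap. In controls it read 143, 56.1 and 166 in 129X1/SvJ and 82.0 and 67.4 in B6.CAST, which overlap. The strain difference after noise was -0.84 ± 0.35 (limma, unadjusted p = 0.036, adjusted p = 0.413). Of the 7 probe sets in the group, 5 had a positive change with noise in 129X1/SvJ and 6 did in B6.CAST; none was called.

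Among the auxiliary subunits, Kcne1, the small partner of Kcnq1, was the steadiest member. It read 1336, 1279 and 1417 in 129X1/SvJ controls, 1333, 1601 and 1452 after noise, 1547 and 1406 in B6.CAST controls and 1244 and 1521 after noise. All 4 groups overlap. The change with noise was 0.14 ± 0.14 in 129X1/SvJ, with a 95% interval of -0.17 to 0.45, and -0.11 ± 0.17 in B6.CAST, with an interval of -0.49 to 0.26. Its residual SD of 0.14 was the lowest of the 23 members, at the 8.78th percentile of all probe sets tested. Changes smaller than these intervals were not detectable with this number of arrays.

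The Kcnab genes encode cytoplasmic beta subunits that bind channels of the Kcna type and alter their gating and surface level. Kcnab2 has 2 tested probe sets. The probe set 102892_at read 794, 613 and 652 in 129X1/SvJ controls and 441, 558 and 810 after noise. In B6.CAST it read 1279 and 1846 in controls and 2053 and 1339 after noise. Every B6.CAST array was above every 129X1/SvJ array, while control and noise arrays overlapped within each strain. After noise the strain difference was 1.49 ± 0.27 on the log2 scale, with a 95% interval of 0.90 to 2.08 (limma, adjusted p = 0.020; n = 3 and 2 arrays), between mean signals of 576 and 1642. It was the only member called in that comparison, 1 of 23, where 126 of 8695 probe sets were called (1.45%), or 0.874% in the higher direction. In controls the difference was 1.16 ± 0.27, with an interval of 0.57 to 1.75 (limma, adjusted p = 0.082), between mean signals of 675 and 1527. In that comparison no member passed, against 0.92% of all probe sets. That 1 difference passed and the other did not is no evidence that they differ: the change of the strain difference with noise was 0.33 ± 0.38.

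The call after noise rested on few arrays. It was lost when the first noise array of B6.CAST was left out, the one with the Gapdh ratio of 6.94 (1.19, adjusted p = 0.259 in limma), when the second was (1.78, adjusted p = 0.070), and when the second noise array of 129X1/SvJ was (1.46, adjusted p = 0.065). Leaving out each array in turn gave 1.19 to 1.78 in all. The adjusted p from limma was also above the threshold with no variance trend (0.0503), with only the arrays of both noise groups (0.086), and on omitting the pair with high Gapdh ratios (0.334). In each of these settings the calls over all 8695 probe sets fell too, from 126 in the main fit. They were 89 with no variance trend, 55 with only the arrays of both noise groups and 80 without the second noise array of 129X1/SvJ. Calls fell furthest on omitting either B6.CAST noise array or the pair with high Gapdh ratios, which leaves a single array in that group. The loss of the call is therefore not particular to Kcnab2. Averaged over control and noise arrays, a comparison added after the values were seen, the Kcnab2 difference was 1.32 ± 0.19 (limma, adjusted p = 0.0024). It was called without any single array in 10 of 10 fits, at 1.17 to 1.47. In this average 3.24% of all probe sets were called and 1 of 23 members was, and 4 of 23 had an unadjusted p under 0.05, against 15.3%. Arrays of the strains did not overlap for 1 of 23 members and for 6.12% of all probe sets.

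The other Kcnab2 probe set, 162182_f_at, read 693, 453 and 569 in 129X1/SvJ controls, 666, 643 and 464 after noise, 504 and 633 in B6.CAST controls and 667 and 539 after noise. All groups overlap. The strain difference was 0.02 ± 0.25 in controls, with a 95% interval of -0.52 to 0.55, and 0.04 ± 0.25 after noise, with an interval of -0.50 to 0.58. Within an array, the log2 value of 102892_at minus that of 162182_f_at ran from -0.64 to 0.79 on the 6 arrays of 129X1/SvJ, with a median of 0.20. It ran from 1.31 to 1.55 on the 4 arrays of B6.CAST, with a median of 1.41. Of the 2 probe sets of this gene, 102892_at therefore showed the strain difference and 162182_f_at did not.

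Markers of other cells are given beside this result. The summed signal of 4 Schwann cell markers was 11694 to 12955 in 129X1/SvJ and 8649 to 11440 in B6.CAST. That of 7 stria vascularis markers was 19122 to 21868 in 129X1/SvJ and 27197 to 29386 in B6.CAST. Of these, Dct read 6962 to 9332 in 129X1/SvJ and 13147 to 15272 in B6.CAST. Slc12a2, Cldn11 and Atp1b2 overlapped between the strains, and Tyrp1, Esrrb and Met lay below the floor. As a mean log2 deviation over the 4 stria markers above the floor, the strains overlapped, at -0.29 to 0.28 in 129X1/SvJ and -0.27 to 0.54 in B6.CAST. Spiral ganglion markers, 10 in number, summed to 18445 to 25784 and 19679 to 24117. The part of these cell types in the Kcnab2 difference was not tested.

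Kcnab1 was measured above the floor by 102725_at, and its other probe set, 162087_f_at, lay below it. The first read 206, 79.7 and 89.9 in 129X1/SvJ controls, 122, 59.2 and 142 after noise, 259 and 206 in B6.CAST controls and 200 and 212 after noise. The lower B6.CAST control and the highest 129X1/SvJ control are nearly equal as deposited, and after noise the strains are apart. The strain difference was 0.89 ± 0.40 in controls (limma, unadjusted p = 0.046, adjusted p = 0.439) and 1.06 ± 0.40 after noise (limma, adjusted p = 0.332). The average over both was 0.98 ± 0.28 (limma, adjusted p = 0.096) and did not pass.

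Kcnab3 read 196, 33.0 and 131 in 129X1/SvJ controls and 478, 240 and 153 after noise. In B6.CAST it read 208 and 235 in controls and 68.9 and 178 after noise. Control and noise values of 129X1/SvJ overlap, with 1 control array under the floor, and those of B6.CAST do not. The change was 1.21 ± 0.50 in 129X1/SvJ (limma, unadjusted p = 0.034, adjusted p = 0.411) and -0.84 ± 0.61 in B6.CAST. The difference of the changes, -2.05 ± 0.79, had an unadjusted p of 0.025 and an adjusted p of 0.997 in limma. Without the second control array of 129X1/SvJ, where the Gapdh ratio was 29.2 and Kcnab3 was under the floor, the change in that strain was 0.66. Between strains Kcnab3 differed by 0.98 ± 0.56 in controls and -1.07 ± 0.56 after noise, and neither passed.

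**Figure D2:**
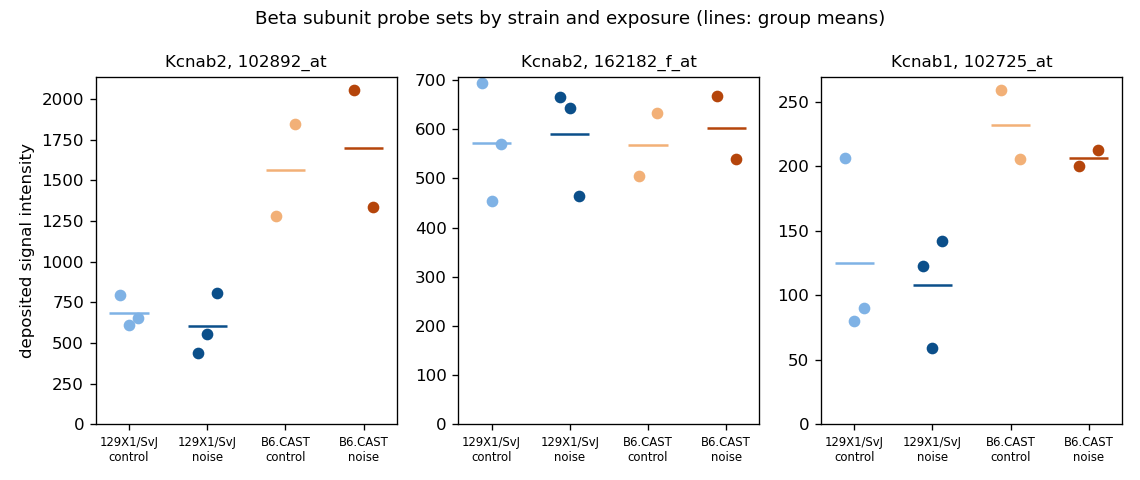
Deposited signal intensity, on axes that start at 0, of the 2 Kcnab2 probe sets and of Kcnab1 in the 4 groups; points are arrays and lines are group means. For 102892_at the B6.CAST arrays lie from 1279 to 2053 and those of 129X1/SvJ from 441 to 810, while the strains overlap for 162182_f_at.

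The inward rectifiers above the floor were Kcnj4, a channel of the strongly rectifying class, Kcnj8, the pore of ATP-sensitive channels in blood vessel walls, and Kcnj9, a channel opened by G proteins. Kcnj8 read 285, 313 and 352 in 129X1/SvJ controls and 180, 284 and 224 after noise. The B6.CAST readings were 260 and 229 in controls and 251 and 197 after noise. The 129X1/SvJ noise arrays are all below the controls, by a small gap, and the B6.CAST groups overlap. The change was -0.55 ± 0.24 in 129X1/SvJ (limma, unadjusted p = 0.041, adjusted p = 0.420) and -0.12 ± 0.29 in B6.CAST. Their mean was -0.34 ± 0.19. Without the first noise array, the lowest, the change in 129X1/SvJ was -0.34.

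The 2 probe sets of Kcnj9 gave similar changes between groups, while their readings on single arrays differed. In 129X1/SvJ, 161799_r_at changed by -0.42 with noise and 98332_at by -0.44, and in B6.CAST by 0.14 and 0.13. The spread was wide. The probe set 98332_at read 89.3, 108 and 167 in 129X1/SvJ controls, 165, 145 and 27.0 after noise, 95 and 116 in B6.CAST controls and 121 and 109 after noise. In the same order, 161799_r_at read 202, 73.6 and 203, then 371, 57.6 and 57.8, then 101.1 and 143, then 156 and 114. Control and noise arrays overlap in both strains for each. The low array of 98332_at, noise replicate 3, is not the only low one of 161799_r_at. Kcnj4 read from 67.9 to 191 over all arrays and its noise changes were 0.17 and 0.00.

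Of the two-pore domain channels, Kcnk2, a background channel opened by membrane stretch and fatty acids, had the smallest p of all members after noise in 129X1/SvJ. It read 923, 1152 and 1284 in controls and 622, 805 and 676 after noise, so that every noise array was below every control array. In B6.CAST it read 806 and 822 in controls and 731 and 750 after noise, again without overlap but with a smaller gap. The change was -0.64 ± 0.17 in 129X1/SvJ, with a 95% interval of -1.02 to -0.27 (limma, unadjusted p = 0.003, adjusted p = 0.194), and -0.14 ± 0.21 in B6.CAST. Their mean was -0.39 ± 0.13 (limma, unadjusted p = 0.013, adjusted p = 0.485), and the difference was 0.50 ± 0.27 (limma, adjusted p = 0.997). None passed over all probe sets. Leaving out each array in turn gave -0.78 to -0.52 in 129X1/SvJ, with no call in 10 fits. In controls Kcnk2 differed by -0.42 ± 0.19 between strains (limma, unadjusted p = 0.049, adjusted p = 0.448), and after noise by 0.09.

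Kcnk1, a weakly conducting background channel, read from 3807 to 6230 over the 10 arrays, and control and noise arrays overlapped within each strain. Its change with noise was 0.13 ± 0.16 in 129X1/SvJ, with a 95% interval of -0.22 to 0.48, and 0.16 in B6.CAST, with an interval of -0.27 to 0.59. Kcnk4, a mechanically gated channel of neurons, read from 96.4 to 265 and changed by 0.11 and -0.02. Kcnk7, a subunit with no known current of its own, read from 173 to 335 and changed by -0.17 and 0.17.

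**Figure D3:**
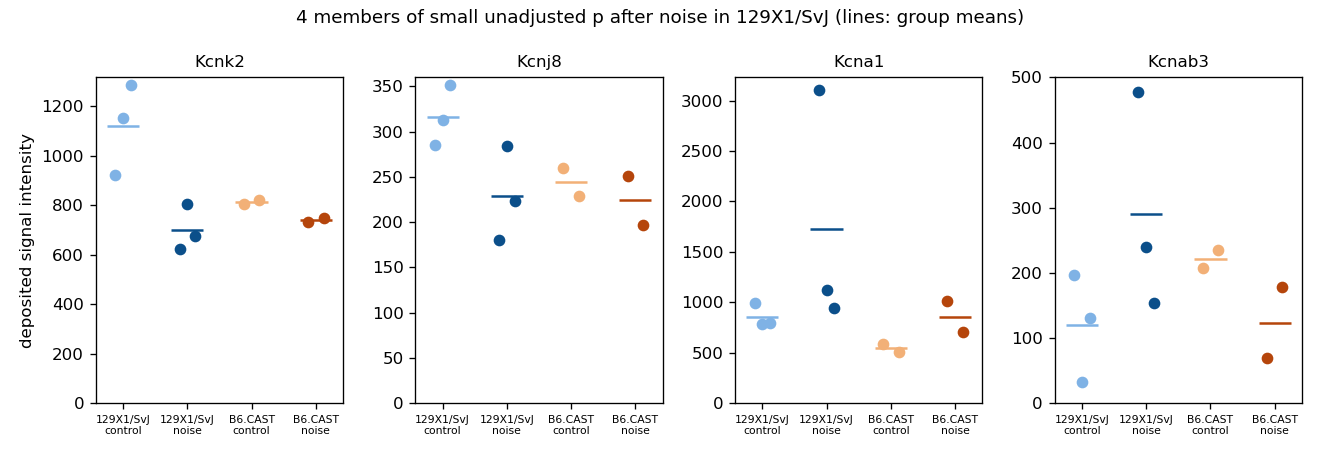
Deposited signal intensity, on axes that start at 0, of the 4 members with an unadjusted p under 0.05 after noise in 129X1/SvJ; points are arrays and lines are group means. In 129X1/SvJ the noise arrays of Kcnk2 and Kcnj8 lie below the controls, and the mean of Kcna1 after noise is pulled up by the array at 3103.

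The calcium-activated channels above the floor were Kcnma1, the large-conductance channel of hair cells and neurons, Kcnn1, a small-conductance channel, and Kcnn4, an intermediate-conductance channel of blood and epithelial cells. Kcnma1 read 190, 108 and 137 in 129X1/SvJ controls and 483, 207 and 160 after noise. B6.CAST controls read 173 and 136, and noise arrays 152 and 185. The first noise array of 129X1/SvJ is again the highest of all, and the groups overlap in both strains by signal as deposited. The change was 0.73 ± 0.34 in 129X1/SvJ (limma, unadjusted p = 0.058, adjusted p = 0.445) and 0.14 in B6.CAST. The mean of both was 0.43 ± 0.27, and 0.21 when 129X1/SvJ noise replicate 1 was omitted.

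Kcnn4 read 221, 272 and 306 in 129X1/SvJ controls and 140, 314 and 426 after noise, and 247 and 255 in B6.CAST controls and 523 and 322 after noise. Noise arrays of 129X1/SvJ lie on both sides of the controls and those of B6.CAST lie above them. The change was -0.12 in 129X1/SvJ and 0.67 ± 0.47 in B6.CAST, the smallest p among members in that strain (limma, unadjusted p = 0.186), and their difference was 0.78 ± 0.61. Omitting noise replicate 1 of B6.CAST gave a change of 0.29 there, and omitting noise replicate 1 of 129X1/SvJ gave a difference of 0.27. Kcnn1 read 196, 82.2 and 210 in 129X1/SvJ controls, 242, 187 and 176 after noise, 141 and 242 in B6.CAST controls and 241 and 221 after noise. These overlap in both strains, and the changes were 0.24 and 0.33 ± 0.38.

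Counted over all 23 members, noise gave no call in either strain, in the mean of the strains or in their difference. The share of all probe sets called was 0.506% in 129X1/SvJ, 0.046% in B6.CAST, 0.46% for the mean and 0% for the difference. In 129X1/SvJ, 13 members were higher and 10 lower, with a median of 0.11 against -0.04 over all probe sets, of which 45% were higher. For B6.CAST the counts were 16 and 7, with a median of 0.10 against 0.01 and with 51.2% of all probe sets higher. For the mean of the strains 14 of 23 were above 0, against 47% of all, and for their difference 13 of 23, against 57.4%. An unadjusted p under 0.05 was found for 4 of 23 (17.4%) with noise in 129X1/SvJ, against 11.5% of all, and for 0 of 23 in B6.CAST, against 2.1%. It was found for 2 of 23 for the mean, against 7.63%, and for 1 of 23 for the difference, against 2.97%. By normalized values, control and noise arrays did not overlap for 2 members (8.7%) in 129X1/SvJ, against 16% of all probe sets, and for 7 (30.4%) in B6.CAST, against 29.6%. The shares without overlap are near or below those over the whole array.

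**Figure D4:**
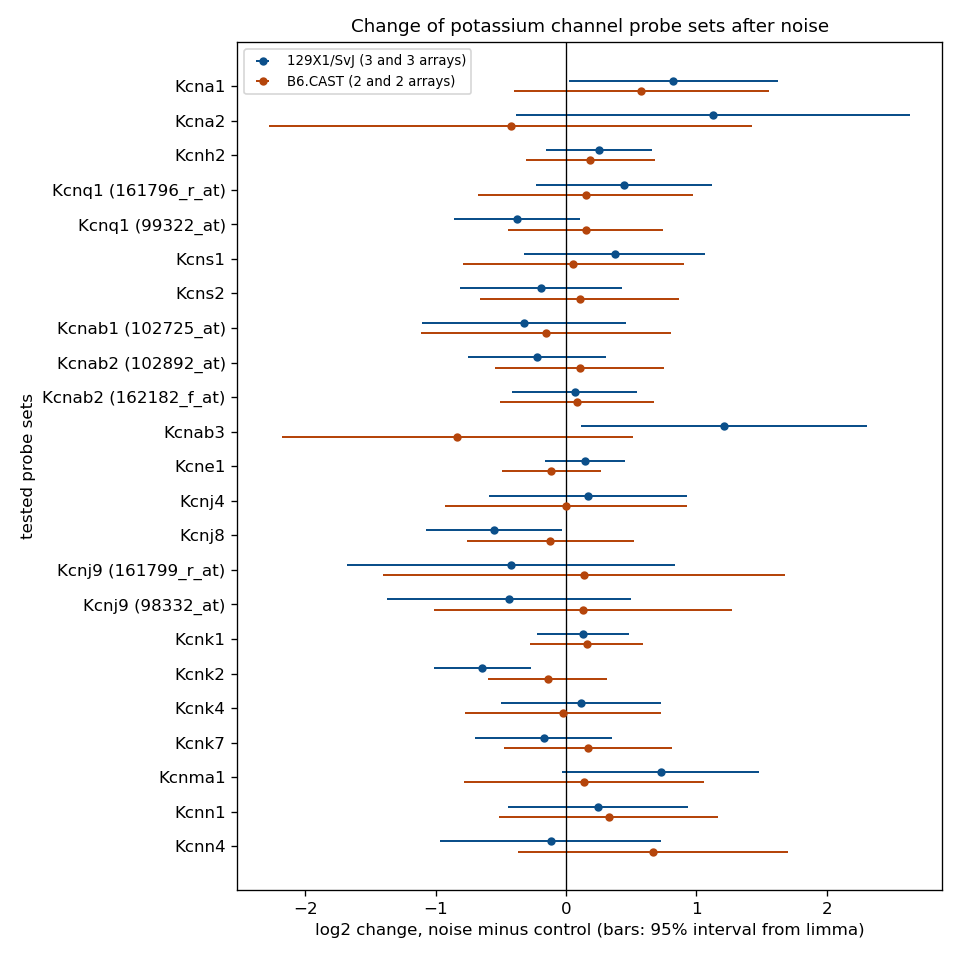
Log2 change with noise and its 95% interval from limma for the 23 tested probe sets, for 129X1/SvJ and B6.CAST. Most intervals include 0 in both strains; those of Kcna1, Kcnab3, Kcnj8 and Kcnk2 do not in 129X1/SvJ, and none of the 23 changes passed after adjustment.

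Between strains, 10 members were higher and 13 lower in B6.CAST controls, against 43.6% of all probe sets higher. After noise 13 were higher and 10 lower, against 52.4%. An unadjusted p under 0.05 was found for 3 of 23 (13%) in each, against 11.1% and 10.6% of all probe sets. Strains did not overlap for 6 members (26.1%) in controls, against 29.9% of all, and for 4 (17.4%) after noise, against 25.3%. The 5 auxiliary probe sets, which are the Kcnab genes and Kcne1, were all higher in B6.CAST controls, with a median of 0.89, but only 3 of the 5 were after noise, with a median of 0.04. None of the others was called in either comparison.

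The array that stood apart weighs on the members. The first noise array of 129X1/SvJ was the highest of the 10 for 10 of 23 members (43.5%), against 20.2% of all probe sets, and the lowest for 4 (17.4%), against 27.3%. It was the highest for Kcna1, Kcna2, Kcnab3, Kcnh2, Kcnk1, Kcnk4, Kcnma1 and 1 probe set each of Kcnab2, Kcnj9 and Kcnq1, after normalization. The lowest 4 were Kcnj8, Kcnk2, Kcnn4 and Kcnab2 (102892_at). The median residual SD of the members was 0.40 on the log2 scale, against 0.27 over all probe sets. The 95% interval of the noise change lay within 1 log2 unit of 0 for 12 of 23 members in 129X1/SvJ and 14 of 23 in B6.CAST, so for the others a change of that size in at least 1 direction was not resolved.

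**Figure D5:**
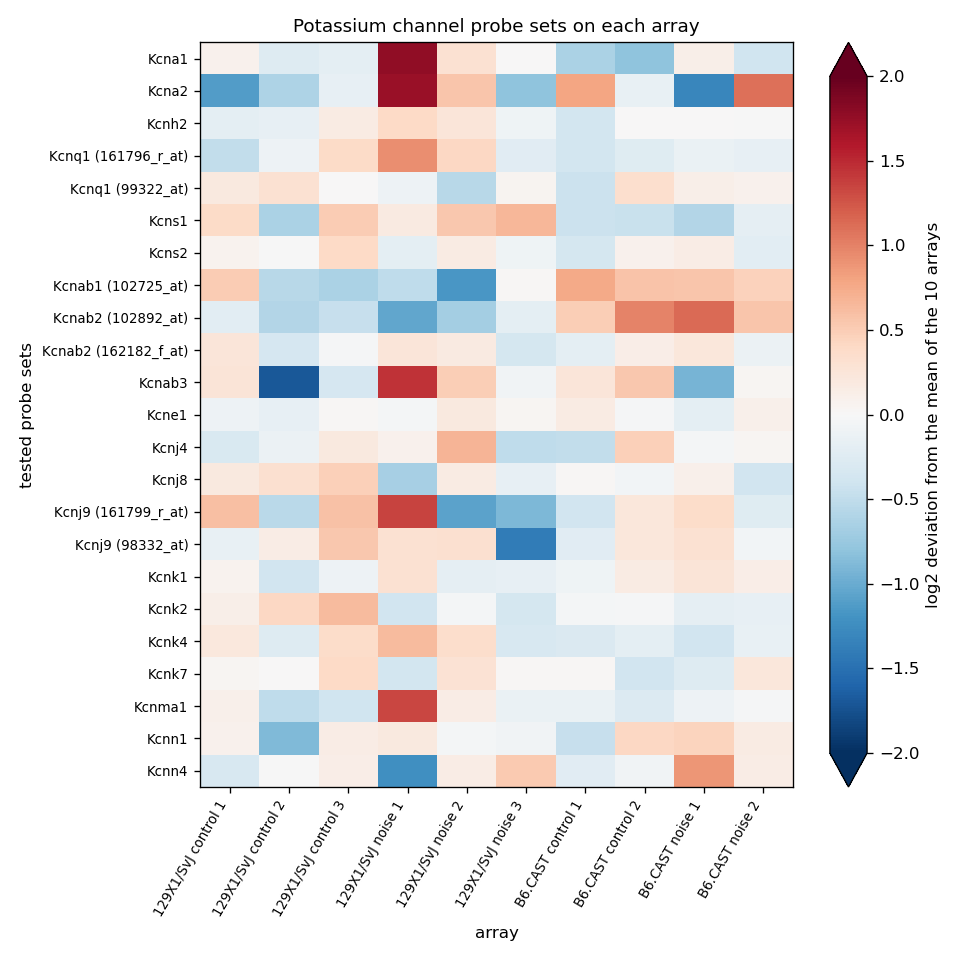
Normalized log2 value of each tested probe set on each array, as the deviation from its mean over the 10 arrays; red is higher and blue lower, and colours stop at 2 log2 units. The column of the first noise array of 129X1/SvJ holds the highest value for 10 of 23 probe sets, and Kcnab2 (102892_at) separates the strains.

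Genes that work with these channels in potassium cycling were read from a list of 25: sodium pump subunits, which load the stria with potassium, chloride cotransporters, gap junction connexins, sulfonylurea receptors and related channels. On the array and above the floor were 13. None was called in any of the 6 comparisons, where 0% to 1.45% of all probe sets were. With noise, 6 were higher and 7 lower in 129X1/SvJ, with a median of -0.04, against -0.04 over all probe sets. In B6.CAST 8 were higher and 5 lower, with a median of 0.09 against 0.01. An unadjusted p under 0.05 was found with noise for 1 of 13 in each strain, against 11.5% of all in 129X1/SvJ and 2.1% in B6.CAST. Between strains it was found for 3 in controls and 2 after noise, against 11.1% and 10.6% of all. Gjb6, a connexin of supporting cells and fibrocytes, differed by -0.63 ± 0.25 in 129X1/SvJ (limma, adjusted p = 0.393). Atp1b2, the beta subunit of the strial sodium pump, read 1616 on the first noise array of 129X1/SvJ and 139 to 226 on the other 5 arrays of that strain, so the high array seen for Kcna1 and Kcnma1 is high for this gene too.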

How the data were processed

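The authors deposited a linear signal intensity per probe set for each of 10 one-colour arrays, already scaled array by array: the mean without the lowest and highest 2% was close to 500.3 on each. Which software made them, and its detection calls: not given in the sources used here. Gene symbols come from the platform annotation.

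From these intensities, log2(intensity + 16) was computed and quantile normalized. Dropping 66 control probe sets and, of the others, the 30% of lowest mean kept 8695 of 12488 (a mean signal above 42.9). limma 3.58.1 (R 4.3.3) fitted 4 group means to all 10 arrays with a variance trend. The 6 comparisons were noise against control in each strain, their mean and their difference, and the strains in control and in noise. P-values were adjusted by Benjamini-Hochberg over all 8695, with a threshold of 0.05. Changes are on the log2(intensity + 16) scale, which understates those of dim probe sets. Errors are standard errors of that fit, and the number of arrays limits the precision.

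Every member is accounted for. Described at most length were Kcnq1 and Kcne1, calls, the 4 members of smallest p and the largest rise and fall per comparison, and genes with several tested probe sets. Members and lists were chosen with earlier results of these data known. On simulated data with 8695 probe sets, 43 of 100 changes of 1 log2 unit and 82 of 100 of 2 were recovered for noise in 129X1/SvJ. For noise in B6.CAST, 31 and 86 were. The changed probe sets were drawn from all 8695, with a median residual SD of 0.27, against 0.40 for the members. The spread was simulated as normal without an outlying array, so these rates are not rates for the members. Alternatives changed scaling, pseudocount, floor, variance trend, array weights, threshold and the arrays fitted, omitted each array once, and blocked on replicate number.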

Additional observations from a re-analysis of the deposited data

How the results depend on the processing

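Of 680 values of single members under 21 alternatives, 666 kept their direction and side of the threshold, 7 lost a call, 3 gained one and 4 turned direction. Those that turned were noise changes in B6.CAST: leaving out each array in turn gave -0.26 to 0.030 for Kcne1, -0.11 to 0.76 for Kcnn1 and -0.23 to 0.53 for Kcnq1 (99322_at), and omitting the pair of arrays with a high Gapdh ratio gave 0.030 for Kcne1. The number of members called between strains in controls went from 0 to 1 with array weights, with only the arrays of the groups compared and at a threshold of 0.10, and was 0 to 1 with each array left out (1 only when 129X1/SvJ noise replicate 1 was). After noise it went from 1 to 0 with no variance trend, on omitting the pair with a high Gapdh ratio, with only the arrays of the groups compared and with the replicate number as a block, and was 0 to 1 with each array left out. The adjusted p of Kcnab2 (102892_at) after noise ran from 0.009 with array weights to 0.334 on omitting that pair. The cause of these shifts was not tested.

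Replicate numbers did not pair the samples: the deviations of same-numbered arrays correlated at -0.15, -0.18 and -0.39 in 129X1/SvJ and -0.17 in B6.CAST. With the replicate block, 0 members were called in each of the 6 comparisons, and with the B6.CAST numbers crossed, added after the data were seen, 1 was called between strains after noise and 0 elsewhere. The mean and difference of noise effects use all groups and could not be fitted with only the arrays of 1 comparison.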
